A study of Mus musculus with 6 samples.

Results

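Wnt ligands, the receptors that bind them and the secreted proteins that enhance or block them were followed in 3 regions of the mouse brain after a single intranasal dose of a dendrimer. The set holds the 19 Wnt ligands, 10 Frizzled receptors, the co-receptors Lrp5 and Lrp6, the R-spondin receptors Lgr4, Lgr5 and Lgr6, 4 R-spondins, 10 secreted inhibitors (Sfrp, Dkk and Wif1 genes and Frzb) and the scaffold genes Axin1 and Axin2. Members were chosen by the gene names that the array files give to their probes, which gave 50 of 35010 genes and 61 of 55666 probes. Where a gene has several probes, the one with the highest mean signal over the arrays stands for it, and 11 members have a further probe.

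The mice were male BALB/c animals, an inbred laboratory strain, aged 8 weeks. They received PAMAM dendrimers (branched polyamidoamine polymers used as carriers of drugs and nucleic acids) at 0.15 mg/kg or saline, and tissue was taken after 24 h from the cerebral cortex, the hippocampus and the olfactory bulb. Each of the 6 combinations of treatment and region has 1 Agilent array, whose RNA was a pool of 6 experiments. The labels leave unstated if animals were shared between regions. Pooling and a single array per group leave no measure of the spread between animals. All p-values below measure only the spread among these 6 arrays.

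Wnt proteins are secreted, lipid-modified signals that bind a Frizzled receptor together with Lrp5 or Lrp6. Binding stops the Axin-based destruction complex, β-catenin accumulates and TCF/LEF factors switch on target genes, while other Wnts signal through Frizzled receptors without β-catenin. R-spondins, held by Lgr4, Lgr5 or Lgr6, remove the ubiquitin ligases Znrf3 and Rnf43 and so keep Frizzled receptors on the surface. Sfrp proteins, Frzb and Wif1 bind the Wnts themselves, and Dkk1, Dkk2 and Dkk4 act on Lrp5 and Lrp6. In the adult rodent brain the pathway is known for its part in neurogenesis in the hippocampus and in the supply of new neurons to the olfactory bulb, and in the upkeep of brain vessels and synapses.

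Values rest on short probes, so 3 are shown here because statements about Wnt1 and Wnt6 turn on them. The bright Wnt1 probe lies at chr15:98624201-98624260 (mm9, plus strand) and was well above background, by the scanner software's mark, on all 6 arrays. A further Wnt1 probe at chr15:98623276-98623335 was above background on 0 arrays. The Wnt6 probe lies at chr1:74831461-74831520. Capitals mark AATAAA, the usual polyadenylation signal, in the last 30 bases of the bright Wnt1 probe and of the Wnt6 probe, and the stop codon TGA that closes an open frame of 19 codons in the further Wnt1 probe, shown over its whole length of 60 bases.
Wnt1 bright probe: cttcctctgaggAATAAAatatctattttt
Wnt1 further probe: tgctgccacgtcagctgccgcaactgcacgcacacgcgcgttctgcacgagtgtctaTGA
Wnt6 probe: gtttagtatcAATAAAgacatttaaatcca
AATAAA stands in 7 of the 61 member probes (11.5%) and in 10.1% of all probes. The values given for Wnt1 below are therefore those of a probe next to a polyadenylation signal, and its coding probe gave no level to set beside them.

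Levels are log2 of the processed signal minus the 75th percentile of that array, so that 0 is the level of that percentile, and they are compared for the same gene between arrays, never between genes. The share of the 59305 spots marked well above background was between 57.6% and 65.9%, and 0 spots were saturated. Each region had the highest summed signal of its own neuron markers, though single markers did not all follow. In the cortical list, Fezf2 was higher in the hippocampus than in the cortex, and Cux1 was higher in the olfactory bulb. Olfactory bulb neuron markers, 13 genes such as Eomes and Doc2g, had a summed signal (linear, in units of the 75th percentile) of 174 with PAMAM and 177 with saline in the olfactory bulb, against 5.96 to 11.2 on the other 4 arrays. The 11 hippocampal markers summed to 61.8 with PAMAM and 73.0 with saline in the hippocampus and to between 19.5 and 31.6 elsewhere, and the 10 cortical markers on the array summed to 67.7 with PAMAM and 70.6 with saline in the cortex and to between 18.4 and 32.8 elsewhere. Markers of neighbouring structures also differed between arrays. Choroid plexus markers summed to 279 with PAMAM and 173 with saline in the hippocampus. In the cortex they summed to 24.5 with PAMAM and 5.40 with saline, and in the olfactory bulb to 6.96 with PAMAM and 7.16 with saline. Such linear sums follow the brightest gene most. That was Ttr in the hippocampus (log2 level 7.95 with PAMAM and 7.27 with saline) and in the cortex (4.38 and 1.66). In the olfactory bulb it was Aqp1 (2.16 and 2.21). Meningeal and fibroblast markers summed to 42.6 with PAMAM and 44.6 with saline in the olfactory bulb, 25.9 with PAMAM and 25.1 with saline in the hippocampus, and 19.8 with PAMAM and 10.5 with saline in the cortex. In the hippocampus the brightest was Dcn (3.71 with PAMAM and 3.72 with saline). Their median log2 levels with PAMAM were 0.92 in olfactory bulb, -0.76 in hippocampus and 0.01 in cortex. With saline they were 1.06, -0.56 and -0.96. Sum and median thus ordered the hippocampus and the cortex PAMAM array differently.

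Of the 50 genes, 36 were well above background on all 6 arrays, 7 on some and 7 on none. The 7 on none were the ligands Wnt2b, Wnt3a and Wnt8a, the R-spondin Rspo4 and the Lrp-binding inhibitors Dkk1, Dkk2 and Dkk4, so that none of the 3 Dickkopf genes that act on Lrp5 and Lrp6 gave a level in any region. The 7 on some arrays were Wnt2, Wnt8b, Wnt9b, Wnt10b, Fzd5, Lgr6 and Rspo2. All 10 Frizzled genes, both co-receptors, both Axins and all 3 Lgr genes were measured somewhere. The 43 genes well above background on at least 2 of the 6 arrays were tested.

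The first comparisons ask how the pathway is laid out across the regions, with 2 arrays a region, 1 from each treatment. Lgr5, Lgr6, Lgr4, Wnt6, Wnt5a, Wnt7a and the Wnt-binding inhibitors Wif1, Sfrp2, Sfrp5, Sfrp4 and Frzb were higher in the olfactory bulb than in either other region. Dkk3, Rspo1, Rspo2, Wnt4, Wnt9a and Fzd10 were lower there. Against the hippocampus, 16 of the 43 genes were higher and 10 lower at an adjusted p under 0.05 (limma, additive fit of region and treatment, Benjamini-Hochberg over 24344 genes), where 16.0% of all genes were higher and 20.4% lower. Against the cortex, 15 were higher and 10 lower, where 16.5% of all genes were higher and 22.8% lower. Among the 36 genes measured on all 6 arrays, where the filter cannot favour a gene for being high in 1 region, 24 passed in a fit to the 21095 genes so measured (15 up and 9 down against the hippocampus), as did 9337 of all these genes. Against the cortex 21 passed in that fit (13 up and 8 down), as did 9925 of all these genes. The median absolute log2 difference was 0.719 for the members and 0.315 for all genes against the hippocampus, and 1.08 for the members and 0.334 for all genes against the cortex. In whole tissue, fewer cells of a type and less RNA per cell cannot be told apart.

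**Figure D1:**
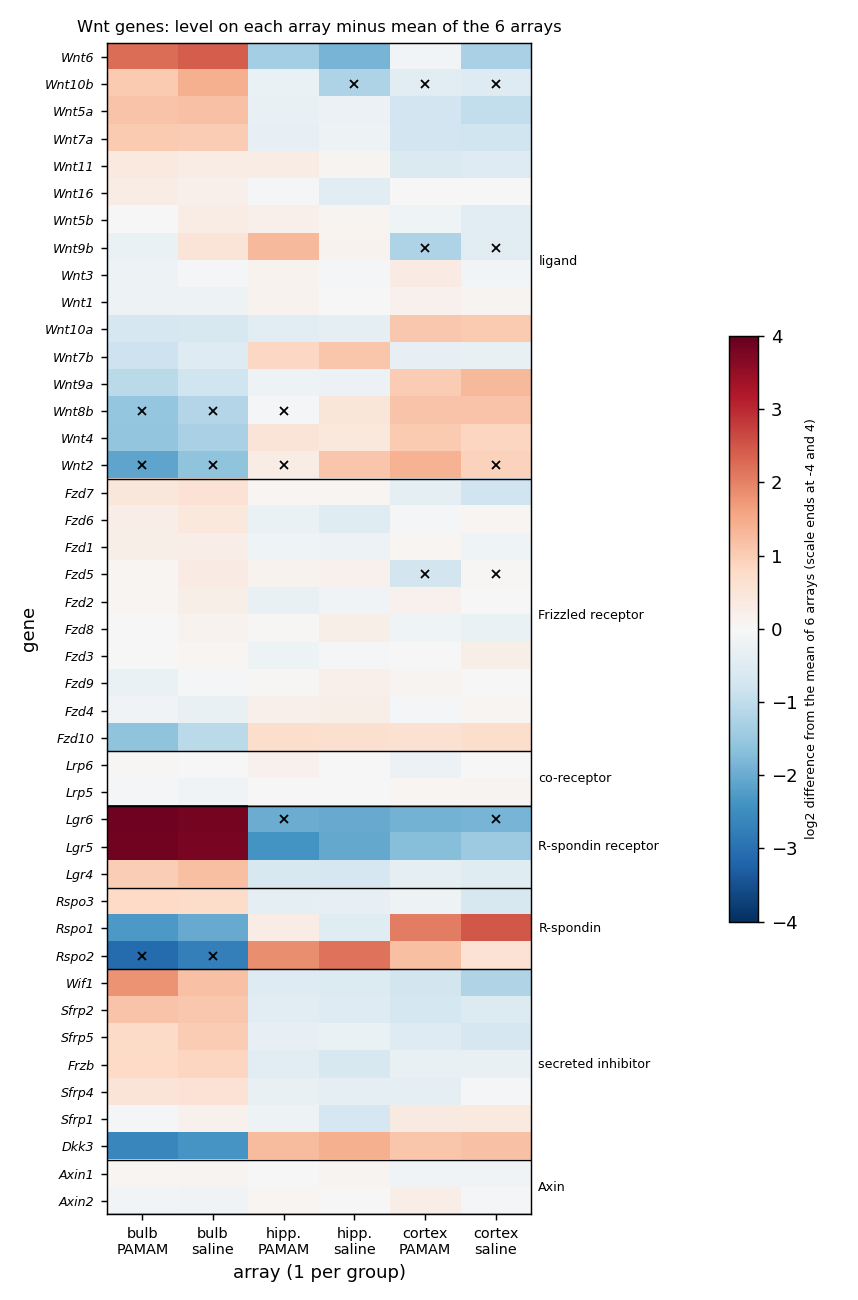
Level of the 43 Wnt genes tested on each of the 6 arrays, as the log2 difference from the gene's mean over the arrays (colour, red above and blue below, cut at -4 and 4), grouped by role, with a cross where the probe was not well above background. The 2 olfactory bulb columns differ most from the rest, with Lgr5 and Lgr6 high and Rspo2, Rspo1 and Dkk3 low, and the PAMAM and saline columns of a region resemble each other.

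Lgr5 and Lgr6, receptors for R-spondins, had the largest differences between regions of all members. Lgr5, best known as a marker of stem cells of the mouse intestine, stood at 3.09 with PAMAM and 3.04 with saline in the olfactory bulb. It stood at -3.16 with PAMAM and -2.81 with saline in the hippocampus, and at -2.47 with PAMAM and -2.22 with saline in the cortex. The olfactory bulb arrays thus lay far above the other 4, by 6.05 ± 0.13 on the log2 scale against the hippocampus (SE, 66.5-fold, adjusted p = 0.00159) and 5.41 ± 0.13 against the cortex (42.6-fold, adjusted p = 0.00157), by limma. Its further probe, well above background on the 2 olfactory bulb arrays only, was at least 2.54-fold higher there than in the hippocampus and at least 2.05-fold higher than in the cortex.

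Lgr6 stood at 1.33 with PAMAM and 1.26 with saline in the olfactory bulb. Elsewhere it was at the edge of detection, at -4.56 with PAMAM and -4.58 with saline in the hippocampus and -4.46 with PAMAM and -4.42 with saline in the cortex, where it was well above background only with saline in the hippocampus and only with PAMAM in the cortex. The difference was 5.87 ± 0.08 against the hippocampus (SE, 58.4-fold, limma adjusted p = 0.00159) and 5.73 ± 0.08 against the cortex (53.3-fold, adjusted p = 0.00157), and its further probe, well above background in the olfactory bulb only, was at least 3.41-fold and at least 2.75-fold higher there. Lgr4, the broadly expressed member of the family, was present in all regions and differed less, with -2.16 with PAMAM and -1.95 with saline in the olfactory bulb and between -3.81 and -3.55 on the other 4 arrays. It was 3.34-fold higher than in the hippocampus (limma adjusted p = 0.00328) and 2.91-fold higher than in the cortex (adjusted p = 0.00363). All 3 receptors therefore had their highest levels in the olfactory bulb. Of all genes, 16.0% passed as higher there against the hippocampus and 16.5% against the cortex.

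**Figure D2:**
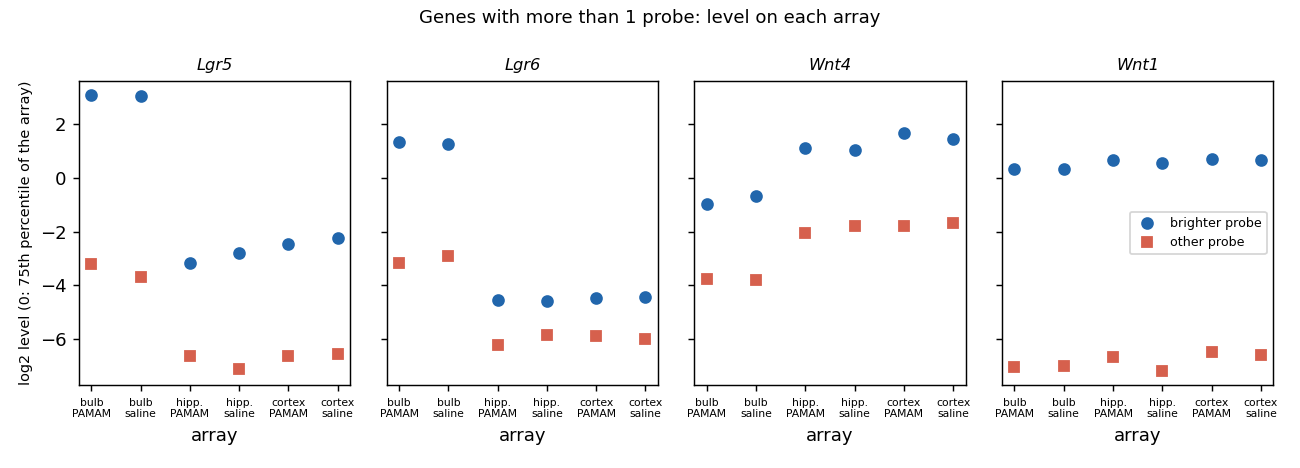
Log2 level (0 is the array's 75th percentile) of the brighter probe (circles) and the other probe (squares) of Lgr5, Lgr6, Wnt4 and Wnt1 on each of the 6 arrays. For Lgr5 and Lgr6 both probes are higher on the 2 olfactory bulb arrays, for Wnt4 both are lower there, and the other Wnt1 probe was above background on 0 arrays.

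The R-spondins, the secreted partners of these receptors, were laid out differently from one another. Rspo3 was higher in the olfactory bulb, with 1.62 with PAMAM and 1.56 with saline, against 0.48 with PAMAM and 0.51 with saline in the hippocampus and 0.62 with PAMAM and 0.19 with saline in the cortex. That was a difference of 1.09 ± 0.14 from the hippocampus (SE, limma adjusted p = 0.012) and 1.19 ± 0.14 from the cortex (adjusted p = 0.00985). Rspo2 was not well above background in the olfactory bulb, at -5.11 with PAMAM and -4.76 with saline. In the hippocampus it stood at -0.17 with PAMAM and 0.15 with saline, and in the cortex at -0.84 with PAMAM and -1.47 with saline. It was at least 30.2-fold lower in the olfactory bulb than in the hippocampus (limma adjusted p = 0.00319) and at least 13.7-fold lower than in the cortex (adjusted p = 0.00443). These bounds set the mean of both arrays of the brighter region against a level for each dim array. That level is the lowest of any probe well above background or, where it is higher, the dim probe's own level.

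Rspo1 differed between all 3 regions, as Wnt9a did. It stood at -2.22 with PAMAM and -1.94 with saline in the olfactory bulb, and at 0.37 with PAMAM and -0.40 with saline in the hippocampus. In the cortex it stood at 2.12 with PAMAM and 2.58 with saline. The olfactory bulb was lower than the hippocampus by 2.06 ± 0.35 log2 units (SE, limma difference -2.06, adjusted p = 0.0205) and lower than the cortex by a difference of -4.43 ± 0.35 (adjusted p = 0.00447). The hippocampus minus the cortex was -2.37 ± 0.35 (adjusted p = 0.0483). Rspo4 was not well above background on any array.

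Of the 16 ligands tested, 5 had higher and 5 lower levels in the olfactory bulb than in the hippocampus (16.0% and 20.4% of all genes). Against the cortex, 5 had higher and 6 lower levels (16.5% and 22.8% of all genes). Wnt6 stood at 0.27 with PAMAM and 0.46 with saline in the olfactory bulb. In the hippocampus it stood at -3.33 with PAMAM and -3.82 with saline, and in the cortex at -2.05 with PAMAM and -3.26 with saline. Its olfactory bulb arrays were higher by 3.94 ± 0.36 than the hippocampus (SE, 15.3-fold, limma adjusted p = 0.00596) and by 3.02 ± 0.36 than the cortex (8.10-fold, adjusted p = 0.00985). The meningeal marker sum was also highest in the olfactory bulb, and its part in the Wnt6 difference was not tested.

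Wnt5a, which mostly signals without β-catenin, stood at 0.90 with PAMAM and 0.93 with saline in the olfactory bulb and between -1.22 and -0.46 on the other 4 arrays. It was 2.66-fold higher than in the hippocampus (limma adjusted p = 0.00474) and 4.03-fold higher than in the cortex (adjusted p = 0.00273). Wnt7a, known for its role in synapse formation and, with Wnt7b, in the brain's vessels, stood at -0.13 with PAMAM and -0.16 with saline in the olfactory bulb and between -1.97 and -1.39 elsewhere. It was 2.48-fold higher than in the hippocampus (adjusted p = 0.00353) and 3.52-fold higher than in the cortex (adjusted p = 0.00221), by limma. Its relative Wnt7b had its highest levels in the hippocampus, at -0.93 with PAMAM and -0.65 with saline, against -2.59 with PAMAM and -2.27 with saline in the olfactory bulb and -2.09 with PAMAM and -2.06 with saline in the cortex. The olfactory bulb minus the hippocampus was -1.64 ± 0.11 for Wnt7b (SE, limma adjusted p = 0.00355), and the hippocampus minus the cortex was 1.29 ± 0.11 (adjusted p = 0.0255). These related ligands therefore differed in where their highest level lay. Wnt10b was 3.98-fold higher in the olfactory bulb than in the hippocampus (limma adjusted p = 0.025), where it was well above background only with PAMAM. It was at least 3.25-fold higher than in the cortex (adjusted p = 0.0325), where it was not well above background. Wnt10b met the filter only with its olfactory bulb arrays counted, so its higher level there follows in part from the filter.

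Wnt4, Wnt9a, Wnt8b and Wnt2 were lower in the olfactory bulb than in both other regions. Wnt4 stood at -0.96 with PAMAM and -0.68 with saline in the olfactory bulb, 1.11 with PAMAM and 1.04 with saline in the hippocampus, and 1.66 with PAMAM and 1.45 with saline in the cortex. Both its probes showed this, with differences of -1.90 and -1.86 from the hippocampus and -2.38 and -2.04 from the cortex. Wnt9a stood at -1.56 with PAMAM and -1.26 with saline in the olfactory bulb, -0.67 with PAMAM and -0.72 with saline in the hippocampus, and 0.54 with PAMAM and 0.84 with saline in the cortex. Its levels thus rose in the order olfactory bulb, hippocampus, cortex. The olfactory bulb minus the hippocampus was -0.71 ± 0.12 for Wnt9a (SE, limma adjusted p = 0.0217). The hippocampus minus the cortex was -1.38 ± 0.12 (adjusted p = 0.0272). Wnt10a was highest in the cortex, at 1.90 with PAMAM and 1.86 with saline there, against 0.15 to 0.43 on the other 4 arrays, and the hippocampus minus the cortex was -1.47 ± 0.07 (limma adjusted p = 0.0185). Wnt8b and Wnt2 were not well above background in the olfactory bulb. Wnt8b was at least 3.74-fold lower there than in the cortex (limma adjusted p = 0.00314). By the same reckoning it was 1.98-fold lower than in the hippocampus, where only the saline array was well above background (adjusted p = 0.00662). Wnt2 was 1.68-fold lower than in the hippocampus and 2.30-fold lower than in the cortex (adjusted p = 0.0129 and 0.00891). The Wnt2 values, and that of Wnt8b against the hippocampus, include a brighter-region array not well above background, so they are not strict bounds. In each of those regions Wnt2 was well above background on 1 of 2 arrays. Wnt2 was tested only through those 2 arrays, and Wnt8b and Rspo2 only through arrays of these 2 regions, so their lower levels in the olfactory bulb follow in part from the filter.

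Wnt1, a ligand of the embryonic midbrain, had nearly even levels by its bright probe, between 0.33 and 0.71 on the 6 arrays. Its olfactory bulb minus cortex difference of -0.36 ± 0.08 passed the test (SE, limma adjusted p = 0.0329) and that from the hippocampus, -0.29 ± 0.08, did not (adjusted p = 0.0573). Wnt11 passed in the hippocampus minus the cortex at 0.75 ± 0.10 (adjusted p = 0.039) and in the olfactory bulb minus the cortex at 0.89 ± 0.10 (adjusted p = 0.00787). Wnt3 and Wnt5b passed in no comparison. Wnt9b was at least 1.91-fold higher in the hippocampus than in the cortex, where it was not well above background, and did not pass (adjusted p = 0.209). Rspo2 and Wnt6 had hippocampus minus cortex differences of 1.15 ± 0.29 and -0.92 ± 0.36 that did not pass either (adjusted p = 0.119 and 0.235).

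The Frizzled genes were called about as often as genes in general against the hippocampus. Of the 10, 2 had higher and 2 lower levels in the olfactory bulb than in the hippocampus (16.0% and 20.4% of all genes), and 1 was higher and 1 lower than in the cortex (16.5% and 22.8% of all genes). Fzd10 had the largest difference of them, at -3.78 with PAMAM and -3.24 with saline in the olfactory bulb against -1.56 to -1.46 on the other 4 arrays, which is 4.04-fold lower than in the hippocampus (limma adjusted p = 0.00532) and 3.98-fold lower than in the cortex (adjusted p = 0.00541). Fzd7 was 2.12-fold higher in the olfactory bulb than in the cortex (adjusted p = 0.0164), with 0.37 on the log2 scale by its further probe. Fzd1, Fzd6 and Fzd4 passed against the hippocampus with differences of 0.44, 0.72 and -0.43. Fzd2, Fzd3, Fzd5, Fzd8 and Fzd9 passed in no comparison. The co-receptors Lrp5, at 1.39 to 1.64, and Lrp6, at 1.58 to 2.0, were level across the 6 arrays and passed in none, with differences between -0.18 and 0.21. Axin1, part of the destruction complex, ranged from -0.75 to -0.51, and Axin2, a feedback target of β-catenin signalling, from -1.74 to -1.31, and neither passed.

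Of the 7 secreted inhibitors tested, 5 were higher in the olfactory bulb and 1 was lower, against either region. Of all genes, 16.0% were higher and 20.4% lower against the hippocampus, and 16.5% and 22.8% against the cortex. All of the 7 but Dkk3 are of the Wnt-binding kind, so that the 5 are too was largely set by which inhibitors were detected. Wif1 stood at -0.49 with PAMAM and -1.11 with saline in the olfactory bulb, -2.80 with PAMAM and -2.83 with saline in the hippocampus, and -3.04 with PAMAM and -3.49 with saline in the cortex. It was 4.04-fold higher than in the hippocampus (limma adjusted p = 0.00514) and 5.53-fold higher than in the cortex (adjusted p = 0.00364). Sfrp2 was 3.02-fold and 3.31-fold higher, Sfrp5 2.27-fold and 2.79-fold, Frzb 2.56-fold and 2.17-fold, and Sfrp4 1.85-fold and 1.67-fold, against the hippocampus and the cortex, with adjusted p between 0.00281 and 0.0195 by limma. Sfrp1 ranged from -3.32 to -2.26 and passed in no comparison. Dkk3, a relative of Dkk1 that does not bind Lrp5 or Lrp6 in the way Dkk1 does, went the other way. It stood at 1.67 with PAMAM and 1.94 with saline in the olfactory bulb, 5.57 with PAMAM and 5.71 with saline in the hippocampus, and 5.40 with PAMAM and 5.45 with saline in the cortex. The olfactory bulb was 14.3-fold lower than the hippocampus (difference -3.84 ± 0.09, SE, limma adjusted p = 0.00159) and 12.3-fold lower than the cortex (difference -3.62 ± 0.09, adjusted p = 0.00157), while the hippocampus minus the cortex was 0.22 ± 0.09 (adjusted p = 0.256).

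**Figure D3:**
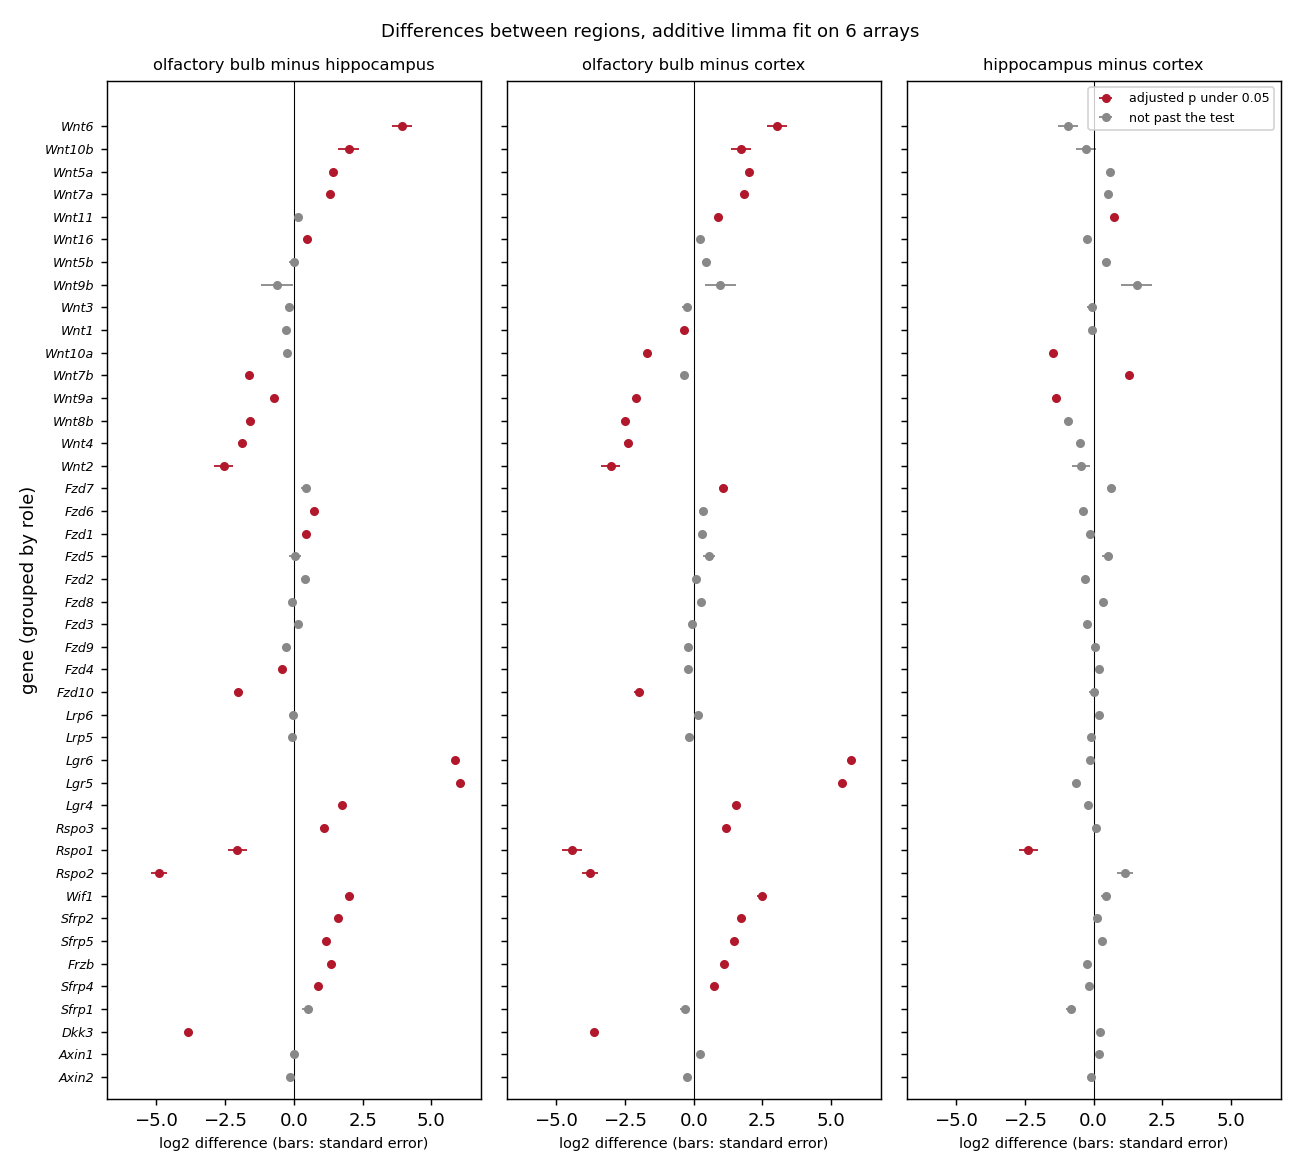
Log2 differences between regions for the 43 genes tested, in 3 panels (olfactory bulb minus hippocampus, olfactory bulb minus cortex, hippocampus minus cortex), with the standard error of the limma fit as a bar and genes at an adjusted p under 0.05 in red. The first 2 panels show 26 and 25 red genes reaching 6.05 for Lgr5, and the third shows 5, none beyond -2.37.

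The hippocampus and the cortex differed in fewer members: 2 were higher in the hippocampus (Wnt7b and Wnt11) and 3 lower (Rspo1, Wnt10a and Wnt9a), where 2.95% of all genes were higher and 3.17% lower. All 5 are secreted, 4 of them ligands, and no receptor passed. The members' median absolute difference was 0.303 and that of all genes 0.165. With any 1 of the 6 arrays left out, 0 of these 5 passed, and 0 of all genes did. Leaving out either olfactory bulb array leaves that region 1 array. In those fits all 26 members called for the olfactory bulb minus the hippocampus kept their direction. Fewer of them passed, and fewer of all genes did. With the slide row of the arrays as a block, 18 of the 26 calls against the hippocampus stood and 0 of the 25 against the cortex, with adjusted p from 0.0717 to 0.446 and every direction kept. Calls over all genes in that fit numbered 2618 against the hippocampus and 0 against the cortex, beside 8856 and 9559 without the block, so the loss ran across the whole array. Both olfactory bulb arrays lie in row 1 and both cortex arrays in row 2, and that fit has 1 residual degree of freedom. The hippocampus PAMAM array lies in row 2 and its saline array in row 1, so row and treatment cannot be told apart there. Row varies within a region only in the hippocampus. Against the hippocampus the block therefore gives the same calls as leaving out the hippocampal PAMAM array, and is not a separate check.

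Promoters are shown for 3 genes that set the regions apart, Lgr6 and Wnt6 for the olfactory bulb and Rspo1 for the cortex, as 250 bases before to 50 after the start, from RefSeq (GRCm38.p6), with each CG dinucleotide in capitals. They lie at chr1:135105227-135105526 (minus strand), chr1:74771642-74771941 (plus strand) and chr4:124986180-124986479 (plus strand).
Lgr6: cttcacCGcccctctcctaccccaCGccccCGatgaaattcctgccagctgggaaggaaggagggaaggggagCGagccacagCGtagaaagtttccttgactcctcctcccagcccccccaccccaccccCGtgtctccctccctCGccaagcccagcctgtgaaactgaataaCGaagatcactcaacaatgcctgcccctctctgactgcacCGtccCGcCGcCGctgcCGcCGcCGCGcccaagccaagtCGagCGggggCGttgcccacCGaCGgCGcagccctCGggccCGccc
Wnt6: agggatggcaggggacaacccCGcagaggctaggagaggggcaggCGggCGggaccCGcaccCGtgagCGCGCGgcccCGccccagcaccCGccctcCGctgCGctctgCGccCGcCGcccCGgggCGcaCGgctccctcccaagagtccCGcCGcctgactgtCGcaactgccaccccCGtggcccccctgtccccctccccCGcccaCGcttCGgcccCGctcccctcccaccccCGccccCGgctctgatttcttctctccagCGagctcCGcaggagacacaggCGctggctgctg
Rspo1: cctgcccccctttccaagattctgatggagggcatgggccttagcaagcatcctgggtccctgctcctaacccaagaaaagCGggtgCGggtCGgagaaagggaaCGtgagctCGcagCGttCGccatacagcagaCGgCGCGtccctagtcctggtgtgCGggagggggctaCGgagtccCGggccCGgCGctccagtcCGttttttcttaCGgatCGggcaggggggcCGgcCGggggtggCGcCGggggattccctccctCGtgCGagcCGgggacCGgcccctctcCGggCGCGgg
They hold 24, 31 and 29 CG dinucleotides and 67.7%, 76.7% and 69.0% G and C. The 35 promoters found for 32 members had a median of 26 CG dinucleotides and 67.7% G and C, and the 32851 promoters of all genes a median of 7 and 52.7%. The letters CTTTGAT and CTTTGTT, a form of the site bound by TCF/LEF factors, searched on both strands, were in 0 of these 3. They were in 5 of the 35 member promoters (14.3%, those of Dkk1, Fzd7, Wnt11, Wnt3 and Wnt5b) and in 9.33% of all. CG-rich starts were thus shared by genes high in the olfactory bulb and by a gene high in the cortex.

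The second question is whether the dendrimer changed these genes within 24 h. Within a region this is a difference between 2 arrays, with no test. In the hippocampus these 2 arrays also lie in different slide rows. The spread between repeated spots gives a technical SD for such a difference of 0.083 to 0.086 for brighter probes and 0.21 to 0.23 for dimmer ones, which covers spot noise only. Most of the pathway stayed near its saline level. Of the genes measured on both arrays, 34 of 40 in the olfactory bulb, 32 of 39 in hippocampus and 29 of 38 in cortex lay within 0.3 log2 units of 0 (85%, 82.1% and 76.3%), as did 88.8%, 86.5% and 80.4% of all genes. In the olfactory bulb 0 members were 2-fold apart, where 0.258% of all genes were. In the hippocampus 1 was (Wnt9b), where 0.649% of all genes were, and in the cortex 1 was (Wnt6), where 0.768% of all genes were. Members well above background on only 1 array of a pair numbered 0 in olfactory bulb, 4 in hippocampus and 2 in cortex, too few to set against the 8.61%, 13.9% and 17.7% of such genes with a bound of 2-fold, and 0 of them had one. Differences were above 0 for 12 of 40 members in the olfactory bulb, 22 of 39 in the hippocampus and 21 of 38 in the cortex, where 47.3%, 51.2% and 53.5% of all genes were. The medians of the members were -0.0943, 0.0337 and 0.0292 in these regions, beside -0.00923, 0.0042 and 0.0167 for all genes.

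**Figure D4:**
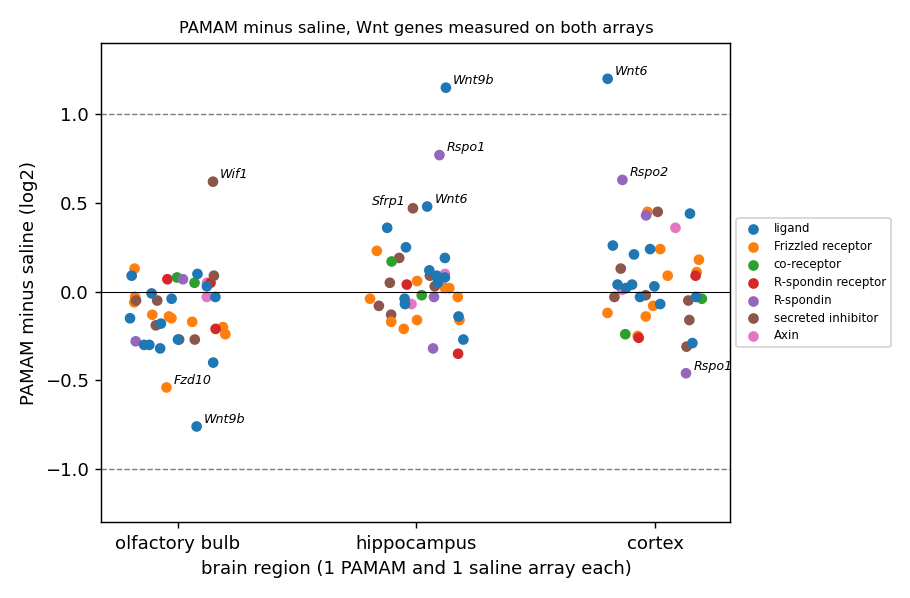
PAMAM minus saline log2 difference of each Wnt gene measured on both arrays, by region (40, 39 and 38 genes, spread sideways for legibility), coloured by role, with dashed lines at 2-fold. Wnt9b in the hippocampus (1.15) and Wnt6 in the cortex (1.20) lie beyond the lines, and the rest lie between -0.76 and 0.77.

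Wnt6 in the cortex was 1.20 higher on the PAMAM array than on the saline array, at -2.05 with PAMAM and -3.26 with saline, by the probe shown above. In the hippocampus its difference was 0.48, and in the olfactory bulb, where its level was highest, -0.18. On the same cortex arrays, meningeal and fibroblast markers were higher with PAMAM in 12 of the 12 genes measured (median 0.78), choroid plexus markers in 9 of 10 (median 0.62) and hippocampal neuron markers in 6 of 7 (median 0.52). So were 3 of 3 red cell markers (median 0.49), 6 of 6 microglial markers (median 0.17) and 2 of 11 olfactory bulb neuron markers (median -0.35), and the part of all these in the Wnt6 difference was not tested. Wnt6 was a dim probe in the cortex, and with the normexp background correction its difference was 0.75.

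Wnt9b, a dim probe, stood at -2.99 with PAMAM and -4.14 with saline in the hippocampus, a difference of 1.15, or 0.63 with normexp. In the olfactory bulb it stood at -4.55 with PAMAM and -3.79 with saline, a difference of -0.76 and the largest there. In the cortex it was not well above background on either array. The signs in the olfactory bulb and the hippocampus were thus opposite.

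Rspo1 also differed in opposite directions by region: it was 0.77 higher with PAMAM in the hippocampus, at 0.37 with PAMAM and -0.40 with saline, and its difference was -0.46 in the cortex, at 2.12 with PAMAM and 2.58 with saline. In the olfactory bulb its difference was -0.28. In the hippocampus, choroid plexus markers were higher with PAMAM in 14 of 14 genes (median 0.71), thalamic markers in 5 of 5 (median 0.78), red blood cell markers in 4 of 4 (median 0.55) and cortical neuron markers in 9 of 10 (median 0.18), while those of hippocampal neurons were higher in 2 of 10 (median -0.21). The part of these markers in the Rspo1 difference was not tested.

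Among the inhibitors, Wif1 was higher with PAMAM in the olfactory bulb by 0.62, at -0.49 with PAMAM and -1.11 with saline, and in the cortex by 0.45, at -3.04 with PAMAM and -3.49 with saline, and by 0.03 in the hippocampus. Sfrp1 was 0.47 higher in the hippocampus, at -2.85 with PAMAM and -3.32 with saline, and its differences were -0.19 in the olfactory bulb and -0.03 in the cortex. Rspo2 in the cortex was 0.63 higher, at -0.84 with PAMAM and -1.47 with saline, and in the hippocampus its difference was -0.32. Of the receptors, Fzd10 stood lower with PAMAM in the olfactory bulb, by a difference of -0.54, and Fzd7 was 0.45 higher in the cortex, at -3.09 with PAMAM and -3.54 with saline, with 0.91 by its further probe. Wnt10b in the olfactory bulb had a difference of -0.40, at -2.93 with PAMAM and -2.54 with saline. Axin2, a feedback target commonly used as a readout of β-catenin signalling, had differences of 0.05 in olfactory bulb, 0.10 in hippocampus and 0.36 in cortex. Its further probe gave 0.31, -0.53 and -0.81 in these regions, so its probes opposed each other in the hippocampus and the cortex. Lrp6 had 0.05, 0.17 and -0.24 by its brighter probe, and 0.41, -0.22 and -0.21 by its further probe. The probes of Wnt4 also opposed each other in every region, with -0.27, 0.08 and 0.21 by the brighter and 0.03, -0.25 and -0.13 by the further one, so that no direction of a treatment difference was common to the probes of Wnt4.

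Across the regions together, no gene of the 24344 tested passed for PAMAM minus saline (0.0% higher and 0.0% lower by limma, adjusted p under 0.05), with 1500 genes at an unadjusted p under 0.05, of which 0 were members. The 3 members with the smallest p were Wif1, Wnt8b and Wnt7b. Their differences were 0.37 ± 0.14, -0.31 ± 0.12 and -0.21 ± 0.09 in that order (SE, limma adjusted p = 0.795 for each). Wnt8b was well above background on both arrays of a region only for the cortex, where its difference was -0.03. Its olfactory bulb difference of -0.36 had neither array well above background, and its hippocampal difference of -0.55 had only the saline array. The Wnt8b value thus rests mostly on pairs with an array that did not measure it. Wif1 was higher with PAMAM in all 3 regions. Wnt7b was lower in all 3, at -2.59 with PAMAM and -2.27 with saline in the olfactory bulb, -0.93 with PAMAM and -0.65 with saline in the hippocampus, and -2.09 with PAMAM and -2.06 with saline in the cortex. The hippocampal difference of Wif1, 0.03, and the cortical difference of Wnt7b, -0.03, were inside the spot noise. Both genes were picked by their p over these same pairs, so the shared sign is no separate result. In simulated data, with 50 genes changed at each size, this fit recovered 42% of changes of 1 log2 unit and 78% of changes of 2. Across genes a shift under 2-fold shared by the regions was thus not reliably detectable with 6 arrays. For the olfactory bulb minus the hippocampus it recovered 28% and 68% of such changes. The simulation dealt residual spreads out to genes at random, so it does not give the recovery for these members.

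The other genes of the pathway, a list of 68 that covers the cytoplasmic and nuclear components, the Wnt secretion machinery and planar polarity genes, were called as follows. Of 64 tested, 18 had higher and 18 lower levels in the olfactory bulb than in the hippocampus (16.0% and 20.4% of all genes), 19 higher and 17 lower than in the cortex (16.5% and 22.8%), and 1 higher and 4 lower in the hippocampus than in the cortex (2.95% and 3.17%). For PAMAM minus saline over the regions 0 passed. Sp5, a direct target of β-catenin signalling, and Tcf7, one of the TCF/LEF factors, were higher in the olfactory bulb than in the hippocampus. Sp5 was at least 4.22-fold higher (limma adjusted p = 0.00875) and Tcf7 differed by 2.04 ± 0.10 (SE, adjusted p = 0.00255). Rnf43, Ccnd1 and Myc were lower there than in the hippocampus, with differences of -1.39, -0.82 and -0.53 (limma adjusted p = 0.0039, 0.0356 and 0.0134). The feedback target Axin2 passed in no comparison, as given above. Sp5 stood at -2.70 with PAMAM and -2.72 with saline in the olfactory bulb, and was not well above background in the hippocampus. It met the filter only with its olfactory bulb arrays counted, so its higher level there follows in part from the filter. Ror2, a receptor for Wnt5a, was higher in the olfactory bulb than in the cortex by 2.99 ± 0.61 (adjusted p = 0.0295), at -2.16 with PAMAM and -1.95 with saline in the olfactory bulb, and in the cortex it was well above background only with PAMAM. Dact2 differed by -2.78 ± 0.33 there (adjusted p = 0.00951). Dkkl1, a Dickkopf-like secreted protein, was lower in the hippocampus than in the cortex by a difference of -2.42 ± 0.23 (adjusted p = 0.0297), and Gpc4 by 1.46 ± 0.47 in the opposite direction, which did not pass (adjusted p = 0.176).

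Sostdc1, a secreted antagonist of BMP and Wnt signals, was not well above background in the olfactory bulb and stood at 1.95 with PAMAM and 1.04 with saline in the hippocampus and -1.66 with PAMAM and -3.30 with saline in the cortex. It was at least 93.6-fold lower in the olfactory bulb than in the hippocampus (limma adjusted p = 0.00467) and at least 5.95-fold lower than in the cortex (adjusted p = 0.0287). The hippocampus minus the cortex was 3.98 ± 0.52 (adjusted p = 0.0405). Sostdc1 met the filter only through arrays of these 2 regions, so its lower level in the olfactory bulb follows in part from the filter. It was the only gene of this list 2-fold apart by treatment on arrays that both measured it, at 1.64 in the cortex, and it differed by 0.91 in the hippocampus. The choroid plexus marker sum was higher with PAMAM on the same 2 pairs of arrays, as given above, and its part in the difference was not tested. The next largest treatment differences on this list were -0.97 for Dact2 and 0.76 for Znrf3 in the cortex, 0.88 for Dkkl1 and 0.49 for Kremen2 in the hippocampus, and 0.40 for Kremen2, -0.37 for Tcf7l1 and -0.33 for Ccnd1 in the olfactory bulb. Of the genes measured on both arrays, 26 of 63 in olfactory bulb, 32 of 63 in hippocampus and 32 of 60 in cortex were above 0 with PAMAM, beside 47.3%, 51.2% and 53.5% of all genes.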

How the data were processed

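The data are 6 Agilent 1-colour arrays on 1 slide, 1 per region and treatment. The deposited scanner files hold linear spot intensity made with Feature Extraction 10.7.3.1 on a G2505C scanner (design 028005, mm9), per the file headers. The authors also deposited a log2 table, whose scale, centring and direction are not stated. Set against the scanner values it equals the 75th-percentile-scaled log2 values centred per probe (r from 0.9999 to 1 over 29553 probes), with the same direction, and its columns have medians of -0.0617 with PAMAM and -0.0906 with saline for olfactory bulb, 0.0252 with PAMAM and -0.0458 with saline for hippocampus, and 0.0347 with PAMAM and 0.0432 with saline for cortex. How its authors treated repeated spots stays unknown.

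For the values here, log2 of the processed intensity minus each array's 75th percentile was taken, outlier spots were dropped and spots of a probe averaged. Genes with a probe well above background on at least 2 arrays were tested in limma 3.58.1 (R 4.3.3) with region and treatment as terms and 2 residual degrees of freedom. Differences within a region use the arrays of that region, with a threshold of 2-fold and no test. Simulated data with known changes were run through the same fit (24344 genes). Alternatives were quantile normalisation, normexp with an offset of 50, the deposited table, the median of a gene's probes, other filters, an intensity trend, a 1.5-fold threshold, slide row as a block and leaving out each array. Genes named are those with the largest differences per comparison, the smallest p over the regions, and probes that disagree. Brightness was not compared between genes. Members, lists and rules were chosen with earlier results of these data known. The number of arrays limits the precision.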

Additional observations from a re-analysis of the deposited data

Results flagged for a closer look

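For 2 genes the PAMAM minus saline difference had opposite signs in 2 regions, each larger than 3 times the SD of spot noise, and the difference between regions was not tested, since each region has 1 array per treatment. Rspo1 had 0.77 in the hippocampus and -0.46 in the cortex. Wnt9b had 1.15 in the hippocampus and -0.76 in the olfactory bulb.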

How the results depend on the processing

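No called member reversed in any of the alternatives run. Of the 26 calls for the olfactory bulb minus the hippocampus, 12 stood in every alternative in which they were tested, 14 for each but Lgr6 and Rspo2, which the filter on all 6 arrays leaves out (Dkk3, Frzb, Fzd10, Lgr4, Lgr5, Lgr6, Rspo2, Sfrp2, Wif1, Wnt4, Wnt7a and Wnt7b). Of the 25 for the olfactory bulb minus the cortex, 17 stood in every other alternative in which they were tested (Lgr6, Rspo2 and Wnt8b not with the filter on all 6 arrays) and 0 with slide row as a block. Leaving out each array gave 13 to 25 calls, 17 to 25 calls, and 0 to 0 calls for the hippocampus minus the cortex, against 5. For that comparison the count was 3 with the median of a gene's probes, 0 with no filter on background marks, 8 with genes measured on all 6 arrays, 10 with an intensity trend and 0 with slide row as a block. Over all genes these counts were 796, 0, 2340, 3743 and 0, against 1488. The count of the other pathway genes was 3 with quantile normalisation and 10 with normexp, against 5. Members past a 1.5-fold threshold by treatment numbered 2 in each region (433, 686 and 992 of all genes in olfactory bulb, hippocampus and cortex), against 0, 1 and 1 past 2-fold (60, 145 and 166 of all genes). Members past 2-fold in the hippocampus were 0 with normexp, 2 with no filter and 0 among brighter probes, and in the cortex 0 with normexp and 0 among brighter probes. Normexp shifted the median of all genes for the olfactory bulb minus the cortex to -0.126. For PAMAM minus saline over the regions, 0 members passed in all alternatives, with 0 to 4 at an unadjusted p under 0.05. Dim probes are limited by the signal over background, and 7 members had none above it.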

Other observations

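Wnt6 and Wnt10a, neighbours on chromosome 1 with no protein-coding gene between them in RefSeq (GRCm38.p6) and probes 19.2 kb apart (mm9), had their highest levels in different regions, Wnt6 in the olfactory bulb and Wnt10a in the cortex: the olfactory bulb minus the cortex was 3.02 ± 0.36 for Wnt6 and -1.71 ± 0.07 for Wnt10a (SE, limma). Wnt10b and Wnt1, neighbours on chromosome 15 with probes 22.0 kb apart, differed from the hippocampus by 1.99 and -0.29 in the olfactory bulb. Wnt9b and Wnt3 on chromosome 11 have probes 90.2 kb apart, and their PAMAM minus saline differences were 1.15 and 0.25 in the hippocampus. Wnt3a, beside Wnt9a on chromosome 11 with probes 85.4 kb apart, was not well above background on any array.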
